A study of Mus musculus with 12 samples.

Results

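The genes described here are 10 genes of glycolysis and glucose uptake in the ears of mice injected with IL-17A, IL-36γ or both cytokines, namely Slc2a1, Hk1, Hk2, Pfkl, Pfkp, Pfkfb3, Pgk1, Pkm, Ldha and Slc16a3. They were fixed by name and found through the mouse gene symbols that the authors pair with Ensembl identifiers, so they are 10 of the 50684 genes of the count table and 10 of the 19408 genes with enough counts to be tested. All 10 passed the filter on low counts. Female C57BL/6 mice of 8 weeks received PBS, IL-17A, IL-36γ or IL-17A + IL-36γ by injection into the skin of the ear. The dose was 1 µg of each cytokine in 5 µL of PBS, and the ears were taken after 4 days of consecutive treatment. Each group of the study held 5 mice, of which 3 were sequenced, so the data are 12 RNA-Seq libraries in 4 groups of 3. RNA was taken from a part of the ear, labelled as skin, whose layers were not separated, so markers of epidermis, vessels, fat, cartilage and muscle were measured together. The 3 sequenced ears of a group are from separate mice of 1 experiment, so the p-values measure the spread between these mice. In such bulk RNA, fewer cells of a type and less RNA per cell cannot be told apart.

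Glycolysis turns glucose into pyruvate in the cytoplasm and yields ATP without oxygen. Glucose enters most cells through the carrier GLUT1 (Slc2a1), is trapped by hexokinases (Hk1, Hk2) and is committed to the pathway by phosphofructokinase, whose subunits are encoded by Pfkl, Pfkp and the muscle gene Pfkm. Pfkfb3 makes fructose 2,6-bisphosphate, an activator of phosphofructokinase. Phosphoglycerate kinase (Pgk1) and pyruvate kinase (Pkm) make ATP in the lower part of the pathway. Lactate dehydrogenase A (Ldha) reduces pyruvate to lactate, and the carrier MCT4 (Slc16a3) exports lactate from the cell. Proliferating keratinocytes and activated neutrophils and macrophages are known for a high rate of this pathway. Many of its genes are known targets of the transcription factor HIF-1.

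On GRCm38, all 10 are protein-coding genes, counted over their exons. The uptake and hexokinase genes lie as follows, Slc2a1 (ENSMUSG00000028645) at chr4:119108711-119137983 on the plus strand, Hk1 (ENSMUSG00000037012) at chr10:62268855-62379908 on the minus strand and Hk2 (ENSMUSG00000000628) at chr6:82725025-82774454 on the minus strand. For the phosphofructokinase step they are Pfkl (ENSMUSG00000020277) at chr10:77986947-78010083 on the minus strand, Pfkp (ENSMUSG00000021196) at chr13:6579768-6648777 on the minus strand and Pfkfb3 (ENSMUSG00000026773) at chr2:11471433-11554077 on the minus strand. For the lower pathway and export they are Pgk1 (ENSMUSG00000062070) at chrX:106187100-106203699 on the plus strand, Pkm (ENSMUSG00000032294) at chr9:59656368-59679375 on the plus strand, Ldha (ENSMUSG00000063229) at chr7:46841475-46855627 on the plus strand and Slc16a3 (ENSMUSG00000025161) at chr11:120948480-120960868 on the plus strand.

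The libraries held between 25293468 and 34759293 counts in genes, and the coefficient of biological variation of the fit was 14.2%. The keratins of basal keratinocytes, Krt5 and Krt14, had at least 91081 counts in every library, so the defining markers of skin were present. The libraries differed in muscle. The summed level of 10 skeletal muscle genes such as Ckm was 444 CPM, the count relative to the total of its library, in PBS replicate 1 and from 3000 to 3450 CPM in the other 2 PBS libraries, and it lay between 267 and 1340 CPM after IL-17A + IL-36γ. Libraries of the same group differed by more than sampling noise, with a chi-square per gene of at least 6.56 in each of 12 pairs.

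In short, the lower part of the pathway and the lactate carrier carried most of the change. Pgk1, Pkm, Ldha and Slc16a3 rose with IL-36γ alone and with both cytokines, by 2.06-fold to 2.55-fold and by 2.77-fold to 4.77-fold. Slc2a1 and Pfkl rose to 2.46-fold and 2.29-fold of PBS after both cytokines. After IL-17A alone Pgk1, Pkm and Ldha were 1.42-fold to 1.59-fold of PBS, and Hk2, Pfkp and Pfkfb3 passed the test in none of the comparisons with PBS. Levels are given as CPM scaled by the trimmed mean of M-values (TMM). Fold changes, their standard errors (SE) and their 95% intervals are on the log2 scale, and p-values are from the quasi-likelihood test of edgeR, adjusted over the 19408 genes. A gene passed the test at an adjusted p below 0.05, and it was called raised or lowered when its log2 fold change also lay beyond 1 in either direction. The 3 comparisons with PBS share the 3 PBS mice.

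**Figure D1:**
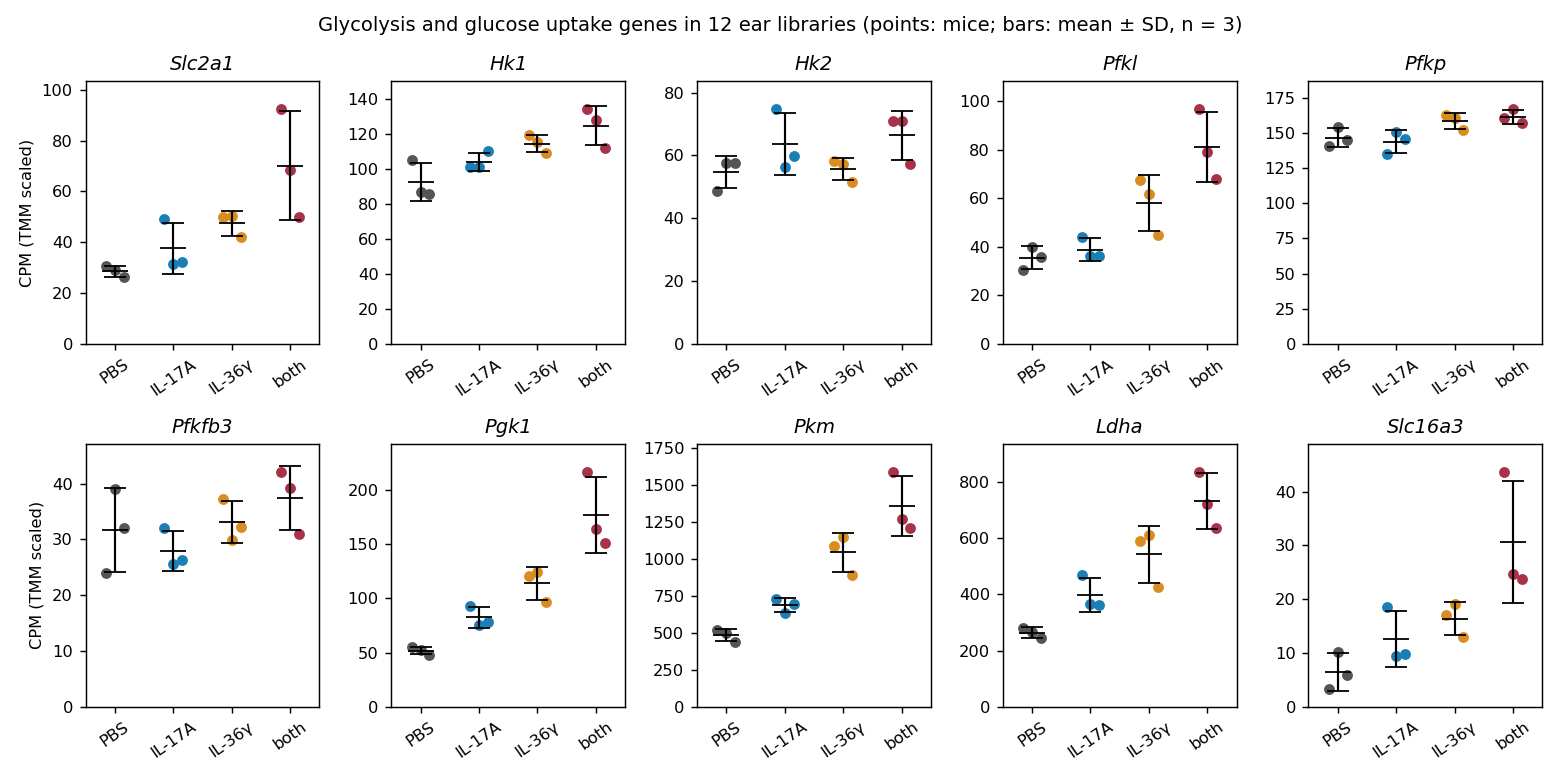
Level of each of the 10 genes in each of the 12 libraries, in TMM-scaled CPM on axes that start at 0. Points are mice, and bars are the mean ± SD of 3 mice. The points of Pgk1, Pkm and Ldha lie apart between PBS and IL-17A + IL-36γ, whereas those of Hk2 and Pfkfb3 overlap.

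Slc2a1 encodes the carrier that brings glucose into keratinocytes and leukocytes. Its level was 30.5, 29.1 and 26.2 CPM in the PBS ears, 49.3, 31.6 and 32.1 CPM after IL-17A, 50, 50.4 and 41.9 CPM after IL-36γ, and 92.4, 68.5 and 49.8 CPM after IL-17A + IL-36γ. Every cytokine library lay above each PBS library, but within the group given both cytokines the highest library stood far above the lowest. On the log2 scale the change was 1.3 after both cytokines (SE 0.21, interval 0.84 to 1.76, adjusted p = 0.000518) and 0.73 after IL-36γ (SE 0.21, adjusted p = 0.023). After IL-17A it was 0.40 (interval -0.06 to 0.86, adjusted p = 0.22) and did not pass. The result after IL-36γ was lost when PBS replicate 2 or 3 or IL-36γ replicate 1 or 2 was left out, with adjusted p-values from 0.0614 to 0.0901.

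Hk1, the hexokinase of most tissues, changed little. It was at 105, 86.8 and 85.4 CPM in the PBS ears, 101, 101 and 110 CPM after IL-17A, 119, 115 and 109 CPM after IL-36γ, and 134, 128 and 112 CPM after both cytokines. The libraries with IL-36γ all lay above those of PBS, although the highest PBS library and the lowest IL-36γ library were close. The log2 fold change was 0.31 after IL-36γ (SE 0.09, adjusted p = 0.0258) and 0.43 after both (SE 0.09, adjusted p = 0.00249). The value after IL-36γ did not pass without PBS replicate 2 or 3 or IL-36γ replicate 1 or 2, with adjusted p-values from 0.071 to 0.117, nor with scaling by library size alone (adjusted p = 0.139). Conversely, Hk1 passed after IL-17A when PBS replicate 1 was left out (log2 fold change 0.27, adjusted p = 0.035).

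Hk2 is the inducible hexokinase of muscle, fat and growing cells. It was measured at 48.8, 57.5 and 57.7 CPM in the PBS ears, 74.7, 56.3 and 59.9 CPM after IL-17A, 58.3, 57.2 and 51.6 CPM after IL-36γ, and 71.1, 70.8 and 57.3 CPM after both. The groups overlapped in all 3 comparisons with PBS. The log2 fold change of 0.28 after both cytokines had an interval of 0.02 to 0.54 and an adjusted p of 0.0726. It passed with DESeq2 (adjusted p = 0.0483) and without replicate 3 of the IL-17A + IL-36γ group (adjusted p = 0.0252). After IL-36γ the value was 0.03 with an interval of -0.23 to 0.29, so a doubling lay outside it.

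Phosphofructokinase is built from subunits of different genes, and Pfkl and Pfkp behaved differently. Pfkl, the liver-type subunit, had 30.6, 40 and 35.6 CPM in the PBS ears, 44.1, 36.1 and 36.2 CPM after IL-17A, 67.3, 61.9 and 45 CPM after IL-36γ, and 96.6, 78.8 and 67.9 CPM after both cytokines. The IL-17A libraries overlapped with PBS, while the libraries with IL-36γ all lay above it. The log2 fold change of Pfkl was 0.71 after IL-36γ (SE 0.16, adjusted p = 0.0082) and 1.2 after both (SE 0.17, interval 0.83 to 1.56, adjusted p = 0.000184). Pfkp, the platelet-type subunit, was at 141, 154 and 145 CPM after PBS and at 161, 167 and 157 CPM after both cytokines. These groups lay apart by a narrow gap, and the log2 fold change of 0.14 had an interval of 0.00 to 0.28 and an adjusted p of 0.1, and it was -0.01 with scaling by library size alone. With IL-17A alone Pfkp was at 135, 151 and 146 CPM and with IL-36γ alone at 163, 161 and 152 CPM, each overlapping with PBS.

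Pfkfb3, the activator of the phosphofructokinase step, showed no change that passed the test. Its level was 24, 39.1 and 32 CPM in the PBS ears, 32, 25.5 and 26.3 CPM after IL-17A, 37.2, 29.8 and 32.2 CPM after IL-36γ, and 42.1, 39.2 and 31 CPM after both. The PBS libraries spread over almost the range of all other groups. The intervals of the log2 fold change ran from -0.55 to 0.19, from -0.31 to 0.43 and from -0.13 to 0.61 after IL-17A, IL-36γ and both cytokines.

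Pgk1, which makes the first ATP of the pathway, was the member with the lowest adjusted p after both cytokines. Its level was 54.8, 52.4 and 48.0 CPM in the PBS ears, 93.0, 75.6 and 78.6 CPM after IL-17A, 121, 124 and 96.8 CPM after IL-36γ, and 217, 164 and 151 CPM after both. The libraries of all 3 cytokine groups lay above all PBS libraries, and those of both cytokines lay above all others. Against PBS its log2 fold change was 0.67 after IL-17A (SE 0.14, adjusted p = 0.0206), 1.14 after IL-36γ (SE 0.14, adjusted p = 0.000244) and 1.78 after both (SE 0.14, interval 1.47 to 2.09, adjusted p = 9.91e-06). After IL-17A Pgk1 did not pass in 3 of the 6 fits that left out 1 PBS or IL-17A library, with adjusted p-values up to 0.118. The value of Pgk1 is uncertain, because 52.7% of the 76-base windows of its transcripts occur in 4 other genes too, among them the retrogene Pgk1-rs7. How the authors treated reads with more than 1 place in the genome is not given in the sources used here.

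Pkm encodes the M1 and M2 forms of pyruvate kinase, which gene counts do not separate. Its level was 517, 497 and 441 CPM in the PBS ears, 727, 636 and 698 CPM after IL-17A, 1090, 1150 and 894 CPM after IL-36γ, and 1590, 1270 and 1210 CPM after both cytokines. The 4 groups followed each other without overlap. The log2 fold change was 0.50 after IL-17A (SE 0.12, adjusted p = 0.0316), 1.11 after IL-36γ (SE 0.13, adjusted p = 0.00014) and 1.48 after both (SE 0.13, interval 1.21 to 1.76, adjusted p = 1.29e-05). The value after IL-17A did not pass without PBS replicate 2 or 3 or any 1 IL-17A library, with adjusted p-values up to 0.152. Of the windows of Pkm, 17.5% are shared with other genes, mainly Gm49759.

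Ldha, the lactate-forming subunit of lactate dehydrogenase, moved with Pkm. It was at 282, 266 and 243 CPM in the PBS ears, 468, 365 and 362 CPM after IL-17A, 592, 611 and 425 CPM after IL-36γ, and 837, 721 and 638 CPM after both. Each cytokine group lay above PBS, and the group with both cytokines lay above all others, while IL-17A and IL-36γ overlapped. Its log2 change against PBS was 0.59 after IL-17A (SE 0.15, adjusted p = 0.0341), 1.04 after IL-36γ (SE 0.15, adjusted p = 0.000676) and 1.47 after both cytokines (SE 0.15, interval 1.14 to 1.81, adjusted p = 3.76e-05). After IL-17A Ldha did not pass in 4 of the 6 fits that left out 1 PBS or IL-17A library, with adjusted p-values up to 0.174.

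Slc16a3, the lactate exporter of glycolytic cells, had the largest log2 fold change of the members in each comparison with PBS. Its level was 3.21, 10.2 and 5.82 CPM in the PBS ears, 18.6, 9.44 and 9.78 CPM after IL-17A, 17.1, 19.1 and 13 CPM after IL-36γ, and 43.7, 24.6 and 23.7 CPM after both. PBS and IL-17A overlapped, and the libraries with both cytokines lay above all others. The log2 fold change was 2.25 after both (SE 0.40, interval 1.39 to 3.12, adjusted p = 0.000854), 1.35 after IL-36γ (SE 0.39, adjusted p = 0.0241) and 0.97 after IL-17A (SE 0.40, adjusted p = 0.12). The result after IL-36γ did not pass without PBS replicate 3 or IL-36γ replicate 1 or 2, with adjusted p-values from 0.0699 to 0.0876.

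The sequences before the start of 5 of these genes are shown. Many genes of the pathway are known targets of HIF-1, and 1 form of its core site reads ACGTG. The other form, GCGTG, was not searched, so a stretch without ACGTG can still hold a core site. Whether HIF-1 had a part in these changes was not tested. The sequences are from RefSeq on GRCm38.p6, read 5′ to 3′ on the strand of the gene from the 150 bases before the start, cut where an annotated exon of the gene begins, and the letters ACGTG on either strand are in capitals. Ldha (chr7:46845654-46845803, plus strand), Pgk1 (chrX:106186950-106187099, plus strand) and Slc16a3 (chr11:120948917-120949052, plus strand) were called after both cytokines and hold the letters. Hk2 (chr6:82774455-82774604, minus strand) holds them too and did not pass. Pfkl (chr10:78009808-78009957, minus strand) was called and holds no ACGTG, although it holds GCGTG. Slc2a1 was called as well, and its stretch, not shown, holds no ACGTG, since its match is not within the stretch. The stretch of the second entry of Pfkfb3, also not shown, holds 1 site, and Pfkfb3 did not pass.
Ldha: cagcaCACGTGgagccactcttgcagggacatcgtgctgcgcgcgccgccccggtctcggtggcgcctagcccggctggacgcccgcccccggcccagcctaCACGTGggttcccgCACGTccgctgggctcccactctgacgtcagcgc
Pgk1: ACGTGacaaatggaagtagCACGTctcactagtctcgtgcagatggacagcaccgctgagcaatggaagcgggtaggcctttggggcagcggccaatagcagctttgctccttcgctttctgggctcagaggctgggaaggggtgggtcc
Slc16a3: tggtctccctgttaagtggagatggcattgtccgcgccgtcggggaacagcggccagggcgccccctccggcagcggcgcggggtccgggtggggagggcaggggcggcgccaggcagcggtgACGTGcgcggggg
Hk2: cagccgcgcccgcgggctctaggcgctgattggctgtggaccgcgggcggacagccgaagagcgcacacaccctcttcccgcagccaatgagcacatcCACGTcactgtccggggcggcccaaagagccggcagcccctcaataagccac
Pfkl: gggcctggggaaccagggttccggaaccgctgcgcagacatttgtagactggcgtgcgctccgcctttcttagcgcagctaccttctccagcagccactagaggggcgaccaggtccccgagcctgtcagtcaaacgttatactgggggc
In Ldha 3 sites are marked, of which 2 read CACGTG, the letters of an E-box, which hold ACGTG on both strands. The stretch of Ldha is the first of its 2 promoter entries, of which the second holds no match. A second site of Slc16a3 and of Hk2 lies outside the letters shown. The stretches of Ldha, Slc16a3 and Pfkl lie inside the annotated span of their gene in no annotated exon of it, whereas those of Pgk1 and Hk2 end at the outer boundary of the gene.

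Over the 250 bases before the start, ACGTG occurred on either strand in 8 of the 14 promoter entries of the 10 genes (57.1%) and in 16.6% of all 32851 promoters. The 8 entries belong to 7 genes, namely Slc2a1, Hk2, Pfkfb3, Pgk1, Pkm, Ldha and Slc16a3. Hk1, Pfkl and Pfkp held no ACGTG, and GCGTG was not searched. The longer letters CACGTG occurred in 2 of the 14 entries (14.3%) and in 6.02% of all promoters. A match describes letters only, and entries of 1 gene are not independent of each other.

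For IL-17A against PBS, none of the 10 genes was called, with edgeR or with DESeq2, and 4 had an unadjusted p below 0.05, beside 31% of all genes. Of all genes tested, 1.07% were called raised and 1.03% lowered. Pgk1, Pkm and Ldha passed the adjusted p upwards, beside 7.44% of all genes that passed upwards and 3.49% downwards. The 3 IL-17A libraries lay above the 3 PBS libraries in 4 of the 10 genes, beside 19.6% of all genes. The median log2 fold change was 0.31 over the 10 genes and 0.04 over all genes tested. This count of 3 was 0 without PBS replicate 2, PBS replicate 3 or IL-17A replicate 1, and also 0 when only the 2 groups were fitted, where the adjusted p-values lay between 0.064 and 0.0749. It was 1 without IL-17A replicate 2, IL-36γ replicate 1 or replicate 2 of both cytokines, whose groups share the estimate of the spread.

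For IL-36γ against PBS, Pgk1, Pkm, Ldha and Slc16a3 were called raised, 4 of 10 beside 5.11% of all genes, and none was lowered, beside 1.98%. Slc2a1, Hk1 and Pfkl passed the adjusted p as well, which gives 7 of 10 beside 17.3% of all genes upwards and 11.1% downwards. The libraries lay apart from PBS, upwards, in those 7 genes, beside 22.4% of all genes. The median was 0.72 over the 10 genes and -0.02 over all genes. The count of called genes fell to 2 without PBS replicate 3, IL-36γ replicate 1 or IL-36γ replicate 2, and the count past the adjusted p then fell to 4. Scaling by library size alone, which moved the median of all genes from -0.02 to -0.16, left 1 gene called.

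For IL-17A + IL-36γ against PBS, the genes called raised were Slc2a1, Pfkl, Pgk1, Pkm, Ldha and Slc16a3, 6 of 10 beside 7.35% of all genes, with 6.06% of all genes lowered. Hk1 also passed the adjusted p, giving 7 of 10 beside 23.7% upwards and 20.9% downwards. The libraries of 8 genes lay above all PBS libraries, beside 27% of all genes. The median was 1.25 over the 10 genes and -0.03 over all genes tested. The count of 6 was the same in each of the 12 fits that left out 1 library and with the muscle level as a covariate.

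**Figure D2:**
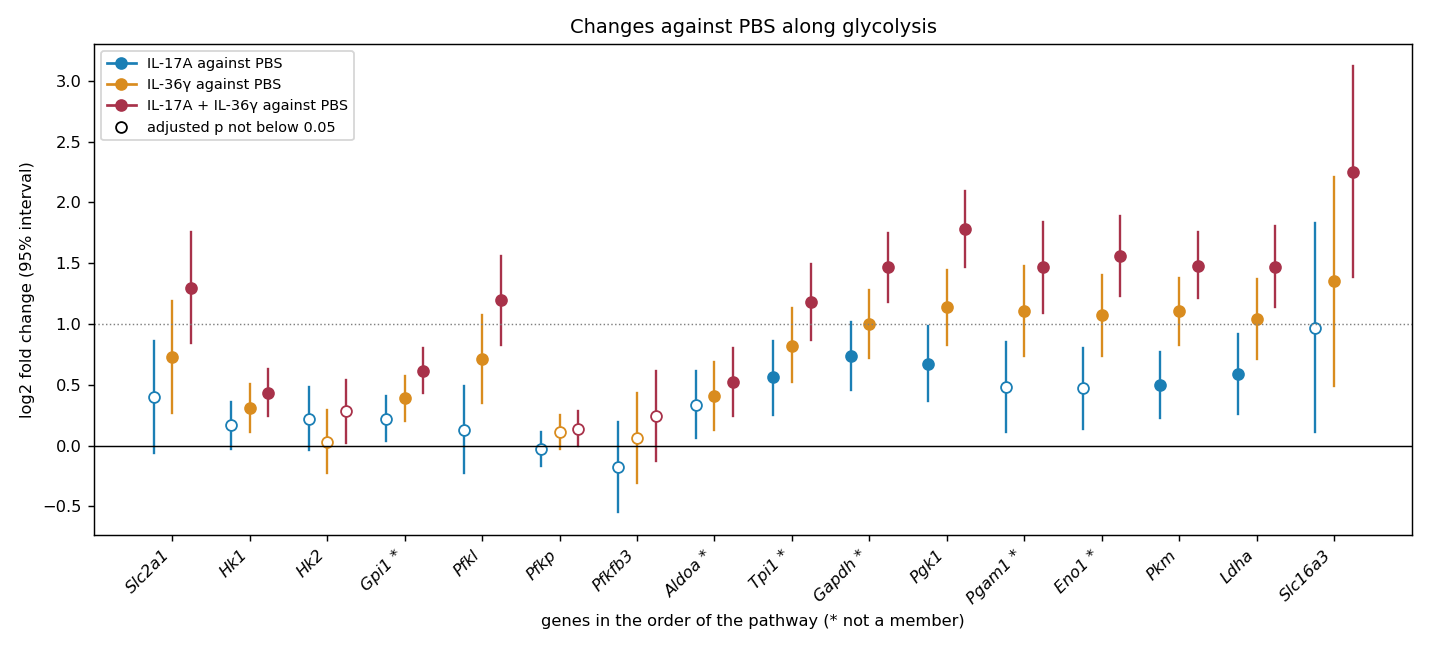
Log2 fold change against PBS with its 95% interval for 16 genes in the order of the pathway, from glucose uptake on the left to lactate export on the right, for each cytokine group (3 mice each). Open circles did not pass the adjusted p of 0.05, and the dotted line marks a log2 fold change of 1. Not all isoforms of a step are drawn. Those left out moved both ways after both cytokines, among them Hk3 (2.39), Pfkm (-1.13) and Eno2 (-0.47). From Tpi1 to Slc16a3 the values after both cytokines lie between 1.18 and 2.25, and those of Hk1, Hk2, Pfkp and Pfkfb3 lie at 0.43 or below.

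The design also allows each cytokine to be added to the other. Adding IL-36γ to IL-17A raised Pfkl (log2 fold change 1.06, adjusted p = 0.000891), Pgk1 (1.11, adjusted p = 0.000336) and Slc16a3 (1.28, adjusted p = 0.0239), 3 of 10 beside 4.46% of all genes. Slc2a1, Hk1, Pkm and Ldha passed the adjusted p with values of 0.90, 0.27, 0.98 and 0.88, so that 7 of 10 passed beside 15.1% of all genes. In 8 of 10 genes the libraries lay apart upwards, beside 23% of all genes. The number called depends on single libraries, since it was 0 without replicate 1 of the group with both cytokines, 5 without replicate 3 of that group and 6 without IL-17A replicate 1. With the muscle level as a covariate 1 gene was called and 4 passed the adjusted p.

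Adding IL-17A to IL-36γ gave positive values for all 10 genes, but none passed the adjusted p of edgeR, as for 0% of all genes in this direction. An unadjusted p below 0.05 was found for 6 of the 10, beside 15.1% of all genes, and with DESeq2 1 gene passed. The largest values were 0.90 for Slc16a3 (interval 0.08 to 1.73, adjusted p = 0.291), 0.64 for Pgk1 (interval 0.34 to 0.94, adjusted p = 0.1) and 0.57 for Slc2a1 (interval 0.11 to 1.02, adjusted p = 0.239). The libraries of Pfkl, Pgk1, Pkm, Ldha and Slc16a3 lay above those of IL-36γ alone, 5 of 10 beside 9.33% of all genes. Without replicate 3 of the group with both cytokines, 1 gene passed.

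Between the single cytokines, Pkm was higher after IL-36γ than after IL-17A, with a log2 fold change of 0.60 (interval 0.33 to 0.88, adjusted p = 0.0163). It was the only member to pass, beside 4.37% of all genes upwards, and 4 members had libraries apart upwards, beside 15.6% of all genes. Pfkl (0.58, adjusted p = 0.0511), Pgk1 (0.47, adjusted p = 0.0594) and Ldha (0.45, adjusted p = 0.0888) missed the threshold. The number that passed was 0 without IL-17A replicate 2 or IL-36γ replicate 2, 2 without PBS replicate 1 or replicate 3 of both cytokines, 3 without replicate 1 of both cytokines, and 4 without IL-36γ replicate 3 or with DESeq2.

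Whether the cytokines add up on the log2 scale was tested as an interaction. In it, the log2 fold change of both cytokines over IL-36γ is reduced by that of IL-17A over PBS. Log2 fold changes that add up are fold changes that multiply, and whether the levels in CPM add up was not tested. No member passed this test with edgeR or DESeq2, beside 0.129% of all genes that passed upwards and 0.423% downwards with edgeR. None had an unadjusted p below 0.05, beside 22.5% of all genes. The values ran from -0.16 for Ldha (interval -0.63 to 0.30) to 0.36 for Pfkfb3 (interval -0.16 to 0.88). For Pkm the interval was -0.51 to 0.26 and for Pgk1 -0.45 to 0.39. For Slc16a3 it was much wider, from -1.25 to 1.11. A departure from additivity on the log2 scale by a doubling in either direction was within it.

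Levels of different genes can be compared only roughly per kilobase of exon. The length used joins all annotated exons of a gene, such as 13401 bases for Pfkp and 6675 for Pfkl. It can exceed that of the transcripts present, so the order depends on the annotation. Shared windows, 52.7% for Pgk1 and 17.5% for Pkm, are a further limit. After PBS the order was Pkm at 97 ± 7.87 CPM per kilobase (SD, n = 3), Ldha at 79.8 ± 5.93, Pgk1 at 23 ± 1.55, Pfkp at 10.9 ± 0.511, Hk1 at 10.8 ± 1.28, Hk2 at 9.15 ± 0.85, Slc2a1 at 8.15 ± 0.624, Pfkl at 5.30 ± 0.702, Pfkfb3 at 4.19 ± 1.00 and Slc16a3 at 1.21 ± 0.669. Of these neighbours, Pfkp and Hk1, Hk2 and Slc2a1, and Pfkl and Pfkfb3 overlapped. Pkm, Ldha and Pgk1 held the first places in every group, although Pkm and Ldha overlapped in all 3 cytokine groups. After both cytokines Slc2a1 came next at 20 ± 6.09 CPM per kilobase and overlapped with Hk1 at 14.6 ± 1.31. Pfkl at 12.1 ± 2.18 then stood next to Pfkp at 12 ± 0.363, and Slc16a3 at 5.77 ± 2.13 next to Pfkfb3 at 4.95 ± 0.763, and each of these pairs overlapped.

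The balance between isoforms was measured as the ratio of their CPM per kilobase within each library, which does not depend on the scaling between libraries. The annotated exon lengths set the level of a ratio, so a ratio near 1 is no proof of equal transcripts. The difference of log2 ratios between groups does not depend on these lengths. The difference between the 6 libraries with and the 6 without a cytokine was tested by an exact 2-sided permutation test within the levels of the other cytokine. The 400 permutations allow no p below 0.005, and the p-values were adjusted over 8 tests. Lactate dehydrogenase is a tetramer of the subunits Ldha and Ldhb, of which the latter is known to favour the oxidation of lactate. The ratio of Ldha to Ldhb was 2.52, 2.29 and 2.20 after PBS, 3.25, 2.77 and 2.54 after IL-17A, 5.67, 6.69 and 4.46 after IL-36γ, and 8.70, 8.11 and 7.38 after both cytokines. The 4 groups followed each other without overlap. On the log2 scale the ratio was higher by 1.37 with IL-36γ than without and by 0.41 with IL-17A than without (both adjusted p = 0.0133, exact permutation test). When the permutations ignored the other cytokine, the adjusted p for IL-17A was 0.425 in the exact permutation test. Ldhb itself passed in opposite directions, with a log2 fold change of 0.30 after IL-17A (adjusted p = 0.026), of -0.22 after IL-36γ (adjusted p = 0.0349) and of -0.32 after both (adjusted p = 0.00323). The first did not pass in 9 of 20 alternatives and the second in 6 of 20, while the value after both passed in all 20.

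**Figure D3:**
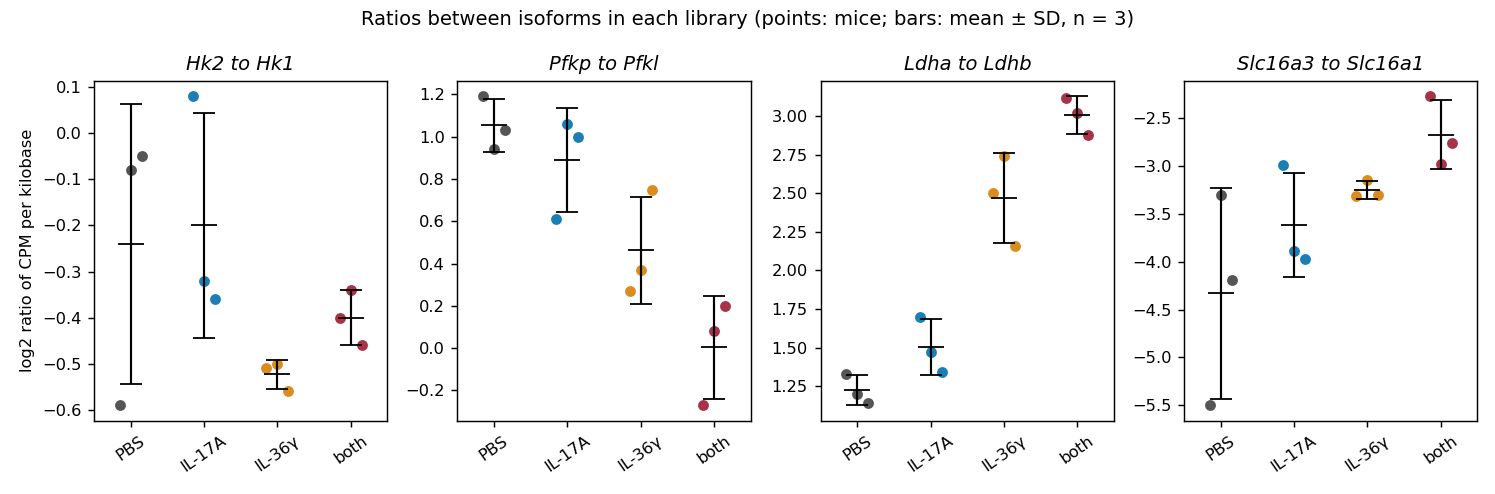
Log2 ratio of CPM per kilobase between isoforms of hexokinase, phosphofructokinase, lactate dehydrogenase and the lactate carriers in each library. Points are mice, and bars are the mean ± SD of 3 mice. The mean log2 ratio of Ldha to Ldhb goes from 1.22 after PBS to 3.01 after both cytokines, and that of Pfkp to Pfkl from 1.05 to 0.00.

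The ratio of Pfkp to Pfkl lay between 1.92 and 2.29 after PBS, 1.53 and 2.09 after IL-17A, 1.2 and 1.68 after IL-36γ, and 0.828 and 1.15 after both cytokines. PBS overlapped with IL-17A, and IL-17A with IL-36γ. The IL-36γ libraries lay below PBS, and those with both cytokines lay below all others. The log2 ratio was lower by 0.74 with IL-36γ (difference -0.74, adjusted p = 0.0133, exact permutation test), while the difference of -0.31 with IL-17A did not pass (adjusted p = 0.056, exact permutation test). The ratio of the lactate carriers Slc16a3 to Slc16a1, of which the latter encodes MCT1, was higher by 1.01 on the log2 scale with IL-36γ (adjusted p = 0.04, exact permutation test). It ran from 0.0222 to 0.102 after PBS and from 0.126 to 0.207 after both. This result did not pass without IL-17A replicate 3 or any 1 library of the IL-36γ or IL-17A + IL-36γ groups, 7 libraries in all, nor with a pseudocount of 0.5 (0.76, adjusted p = 0.056, exact permutation test). The ratio of Hk2 to Hk1 differed by -0.24 with IL-36γ and by 0.08 with IL-17A, with adjusted p-values of 0.107 and 0.49 by the exact permutation test.

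The other genes of the pathway were taken from a list of 38 genes of hexose transport, glycolysis and lactate, of which 32 were tested. After both cytokines 7 were called raised and 3 lowered, beside 7.35% and 6.06% of all genes. The adjusted p was passed upwards by 13 and downwards by 9, beside 23.7% and 20.9% of all genes. After IL-36γ 5 were raised and 1 lowered, beside 5.11% and 1.98% of all genes. After IL-17A none was called, beside 1.07% raised and 1.03% lowered. Of the 32 genes, 12 had an unadjusted p below 0.05 after IL-17A, which is near the 31% of all genes. The median log2 fold change of the 32 genes was -0.11, 0.11 and 0.22 in these 3 comparisons, beside -0.03, -0.02 and 0.04 over all genes tested.

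Among the enzymes that sit between the members, Gapdh, which makes NADH in the step before Pgk1, was at 177 to 201 CPM after PBS and at 448 to 614 CPM after both cytokines, a log2 fold change of 1.47 (SE 0.13, adjusted p = 1.67e-05). Eno1, the enolase of most tissues, went from a range of 120 to 156 CPM to one of 331 to 469 CPM, a log2 fold change of 1.56 (SE 0.15, adjusted p = 2.76e-05). Neither gene had groups that overlapped. Pgam1 and Tpi1, which isomerize intermediates, were raised by 1.47 (adjusted p = 7.03e-05) and 1.18 (adjusted p = 8e-05). Gpi1 and Aldoa, named here after their values were seen to complete the steps, passed with 0.61 (adjusted p = 0.000177) and 0.52 (adjusted p = 0.00643). Other isoforms passed downwards after both cytokines, among them Eno2, the enolase of neurons, with -0.47 (adjusted p = 0.0112), which was also named after its values were seen.

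Isoforms known from other tissues moved in both directions. Hk3, the hexokinase of myeloid cells, rose from 3.88, 4.87 and 5.52 CPM, the lowest, median and highest PBS value, to 23.2, 25.1 and 26.6 CPM after both cytokines, a log2 fold change of 2.39 (SE 0.18, adjusted p = 6.36e-06). Pfkm, the muscle subunit of phosphofructokinase, and Slc2a4, the insulin-responsive carrier GLUT4 of muscle and fat, were lowered after both with -1.13 (adjusted p = 0.0158) and -1.08 (adjusted p = 0.00739). The Pfkm call was lost with the muscle level as a covariate (values over all alternatives from -1.46 to -0.29), with only the 2 groups fitted, without PBS replicate 2 or 3 and without replicate 1 or 2 of both cytokines. Slc2a4 was not called with the muscle covariate, without PBS replicate 2 or 3 or without replicate 2 of both cytokines, with values from -1.34 to -0.49 over all alternatives. Slc2a6, a carrier of lysosomes, was raised by 1.13 (adjusted p = 0.000319), and Fbp1, a gene of gluconeogenesis, by 1.21 (adjusted p = 0.00755) at 0.212 to 0.805 CPM. Slc2a6 was not called without replicate 1 of both cytokines. The Fbp1 call was lost with the muscle covariate and without replicate 2 of both cytokines.

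Of 27 genes of branches such as the pentose phosphate pathway, glycogen and serine synthesis, 12 passed upwards and 4 downwards after both cytokines, beside 23.7% and 20.9% of all genes. Phgdh, the first enzyme of serine synthesis, was called raised (log2 fold change 1.14, adjusted p = 8.91e-05) and Gpd1, which leads to glycerol phosphate, lowered (-1, adjusted p = 0.00407). Gpd1 lies at the threshold and was called in 12 of 20 alternatives, not without PBS replicate 2 or 3, IL-17A replicate 3, IL-36γ replicate 2 or 3 or replicate 2 of both cytokines, and Phgdh was not called with the muscle covariate. After IL-36γ 6 passed upwards and 1 downwards, beside 17.3% and 11.1% of all genes. After IL-17A 5 passed upwards and none downwards, beside 7.44% and 3.49% of all genes.

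Of 19 regulators of the pathway, 4 passed upwards and 4 downwards after both cytokines, near the 23.7% and 20.9% of all genes. Egln3, a prolyl hydroxylase that acts on HIF proteins and is itself a HIF target, was raised by 1.46 (adjusted p = 0.00276), and Mlxipl and Ppargc1a, regulators of lipid and mitochondrial genes, were lowered with log2 fold changes of -1.60 (adjusted p = 0.0093) and -1.23 (adjusted p = 0.0153). Mlxipl was not called with the muscle level as a covariate, and its values over all alternatives ran from -2.28 to -0.76. The lowered call of Ppargc1a did not pass with the muscle level as a covariate, with only the 2 groups fitted, without PBS replicate 2 or without replicate 1 or 2 of both cytokines. Hif1a, named after its values were seen, was at 128, 128 and 129 CPM as lowest, median and highest value after PBS and at 148, 163 and 163 CPM after both, with a log2 fold change of 0.30 (interval 0.04 to 0.56, adjusted p = 0.0548). It stayed above the threshold in 13 of 20 alternatives and passed in the others, which were DESeq2, the fit of only the 2 groups, the replicate block and the fits without IL-17A replicate 1 or 3 or IL-36γ replicate 2 or 3. Of 14 further known HIF targets, 5 passed upwards and 3 downwards after both cytokines, beside 23.7% and 20.9% of all genes. Higd1a (1.13, adjusted p = 0.000107), Ankrd37 (1.02, adjusted p = 0.00716) and Car9 (1.06, adjusted p = 0.0462) were called raised. The 3 that passed downwards, named after their values were seen, were Ndrg1 (-0.49, adjusted p = 0.000778), Ddit4 (-0.69, adjusted p = 0.0159) and P4ha2 (-0.36, adjusted p = 0.0419), of which Ddit4 passed in 16 and P4ha2 in 10 of 20 alternatives. Ddit4 did not pass without PBS replicate 2 or replicate 2 or 3 of both cytokines, and P4ha2 not without PBS replicate 2 or 3, IL-17A replicate 3, IL-36γ replicate 2 or 3 or replicate 1 or 2 of both cytokines. Ankrd37 was called in 13 of 20 alternatives and not without PBS replicate 1 or replicate 1 or 2 of both cytokines. Car9 was called in 7 of 20 alternatives and in none of the fits without 1 library of PBS or IL-36γ, without IL-17A replicate 2 and without replicate 1 or 2 of both cytokines. Vegfa, also named after its values were seen, did not pass (0.24, interval -0.08 to 0.56, adjusted p = 0.207).

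Markers of some cell types rose and those of others fell, and their part in these results was not tested. The summed level of 8 neutrophil genes was 10.5 to 22.4 CPM in the PBS ears, 27.4 to 76.6 CPM after IL-17A, 64.4 to 98.2 CPM after IL-36γ and 114 to 224 CPM after both. All 8 passed upwards after both cytokines, beside 23.7% of all genes, although the defining marker Ly6g was at 0 in 4 libraries. The sum of 6 macrophage genes was 658 to 764 CPM, 1050 to 1360 CPM, 1590 to 1750 CPM and 1480 to 1640 CPM in the same order, with overlapping ranges in the last 2 groups. All 6 passed upwards in each comparison with PBS, beside 7.44%, 17.3% and 23.7% of all genes after IL-17A, IL-36γ and both.

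The 5 genes of stressed keratinocytes such as Krt6a and Krt16 went from a sum of 328 to 535 CPM after PBS to 6410 to 10800 CPM after both cytokines. The sum of 8 proliferation genes such as Mki67 went from 330 to 668 CPM to 1500 to 1710 CPM. All 8 were called raised after IL-36γ and after both, beside 5.11% and 7.35% of all genes. The sum of 6 basal keratinocyte genes was 9340 to 11300 CPM after PBS and 16000 to 20000 CPM after both, but the list went both ways. In it 2 genes passed upwards and 2 downwards, beside 23.7% and 20.9% of all genes, and the median log2 fold change was 0.01. Krt5 (0.87, adjusted p = 0.000267) and Krt14 (1.38, adjusted p = 0.000139) rose, and Krt15 (-1.18, adjusted p = 0.000106) and Col17a1 (-0.42, adjusted p = 0.00202), the latter pair named after their values were seen, fell. The adipocyte sum was 168 to 236 CPM after PBS and 54.4 to 110 CPM after both cytokines, and that of cartilage 226 to 291 CPM and 95.7 to 129 CPM, with the cartilage gene Matn1 at 0 in 6 libraries. The sum of 6 endothelial genes was 135 to 162 CPM after PBS and 129 to 135 CPM after both. Of these genes 4 passed downwards and 0 upwards, beside 20.9% and 23.7% of all genes, with a median log2 fold change of -0.29.

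**Figure D4:**
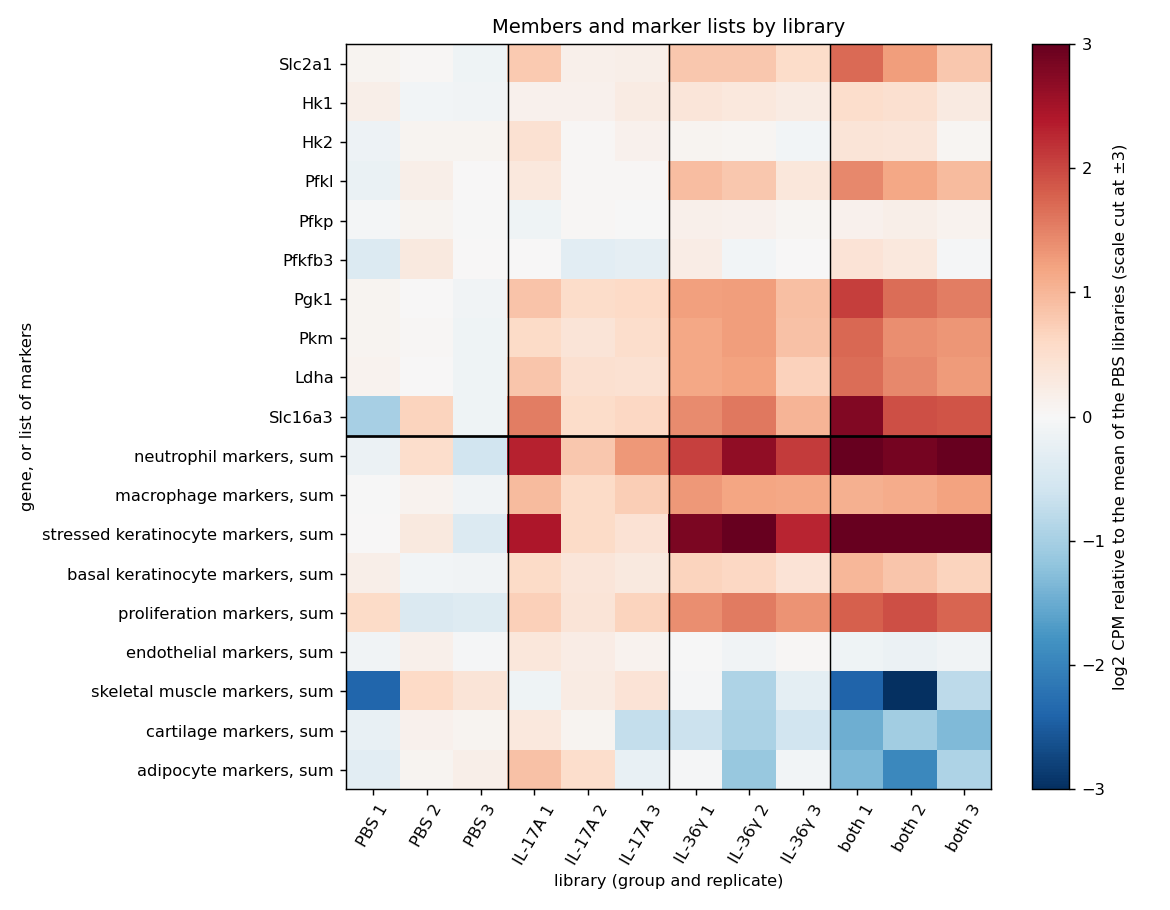
Log2 CPM of the 10 genes (upper rows) and of the summed marker lists (lower rows) in each library, relative to the mean of the 3 PBS libraries, with the colour scale ending at 3 in either direction. Replicate 1 of IL-17A stands above the other 2 IL-17A libraries in stressed keratinocyte and neutrophil markers. It also does so in all members but Hk1 and Pfkp, narrowly in Pkm. PBS replicate 1 is low in muscle markers.

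The 10 genes varied together to different degrees over the 12 libraries. The Pearson correlation of log2 CPM was 0.99 for each pair of Pgk1, Pkm and Ldha, 0.95 for Slc2a1 with Pgk1 and 0.94 for Pfkl with Ldha. It was 0.29 for Hk1 with Pfkfb3 and 0.11 for Hk2 with Pfkp. These values describe 12 libraries that share the groups and the scaling. By the same measure the tested genes most like Pgk1 were Ldha (0.991), Eno1 (0.989) and Pkm (0.989), so other genes of the pathway took its first 3 places. Those most like Pkm were Eno1 (0.992), Il1f6 (0.991), which encodes the cytokine IL-36α, and Dhrs9 (0.990), and those most like Ldha were Pgk1 (0.991), Higd1a (0.990) and 1810037I17Rik (0.990).

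Away from the lower pathway, no other glycolysis gene took a first place. Slc16a3 was most like Il4ra (0.985), a chain of the IL-4 receptor, Tnfsf14 (0.979) and Stfa2l1 (0.976). Slc2a1 was most like Phactr4 (0.973), 1110038B12Rik (0.972) and Eif4ebp1 (0.971), which encodes an inhibitor of translation. Pfkl was most like N4bp1 (0.975), Cmas (0.970) and Amdhd2 (0.968), and Hk1 most like Slc31a1 (0.986), Kars (0.984) and Fam131c (0.984). For the members that did not pass, the highest values were lower, with 0.911 for Hk2 and Ptger2, 0.909 for Pfkp and Arel1, and 0.875 for Pfkfb3 and Ppef2.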

How the data were processed

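RNA of 12 mouse ears was sequenced after depletion of ribosomal RNA with a stranded kit in 76 cycles. Reads were placed on mm10 by STAR 2.5.2b and summed over Ensembl genes by featureCounts (Subread 1.5.1), and the table deposited by the authors holds these raw counts, 1 column per mouse, without normalization. The strand setting and the annotation release are not given in the sources used here. The authors also deposited tables of their own comparisons from DESeq2 1.30.0 with fold changes and p-values, of which only the pairing of identifiers and symbols was used.

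Groups are those of the labels. Counts were filtered by filterByExpr with a minimum count of 10, scaled by TMM and tested by the quasi-likelihood test of edgeR 4.0.16 in R 4.3.3, with a mean per group in 1 fit of all libraries and Benjamini-Hochberg adjustment over 19408 genes. A change was called if its adjusted p was below 0.05 and its log2 fold change beyond 1 in size. DESeq2 1.42.0, other scalings and filters, fits of 2 groups, a replicate block, a muscle covariate and fits without each library were alternatives. Exon lengths were taken from GENCODE vM21 of GRCm38. The procedure was tested on simulated data. Libraries held 25293468 to 34759293 counts, and the lowest count of a member was 116 (Slc16a3).

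The members, lists, tests and alternatives were chosen with earlier results of these data known. Named besides the members were listed genes called in a comparison with PBS, the first 2 markers of each list, the genes of the isoform ratios and, for each member, the 3 genes with the highest correlation. 1 listed gene that the rule would name is not reported here.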

Additional observations from a re-analysis of the deposited data

How the results depend on the processing

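Over 51 values and 791 alternatives, 694 kept their direction and their side of the threshold, or a count within 1.5 times, and the cause of the other changes was not tested except where a setting used fewer libraries. Scaling by library size alone moved the median of all genes against PBS to -0.13, -0.16 and -0.17 after IL-17A, IL-36γ and both cytokines, left 1 member called after IL-36γ (4 as reported) and 1 past the adjusted p after IL-17A (3 as reported), and turned values near 0, namely Hk1 (0.00) and Pfkl (-0.05) after IL-17A, Hk2 (-0.13), Pfkp (-0.04) and Pfkfb3 (-0.10) after IL-36γ, and Pfkp (-0.01) after both. With only the 2 groups fitted, 0 members passed after IL-17A. With the muscle level as a covariate, 1 member was called and 4 passed for both cytokines against IL-17A (3 and 7 as reported). For both cytokines against IL-36γ, 1 member passed with no filter and 1 with DESeq2 (0 as reported). For IL-36γ against IL-17A, where 1 passed as reported, 4 passed by library size alone, with no filter, with DESeq2 and with the replicate block, 3 with only the 2 groups and 2 with the stricter filter or the muscle covariate. Ignoring the other cytokine, the ratio of Ldha to Ldhb differed by 0.41 with IL-17A (adjusted p = 0.425, exact permutation test) and that of Slc16a3 to Slc16a1 by 1.01 with IL-36γ (adjusted p = 0.0577, exact permutation test), and the latter by 0.76 with a pseudocount of 0.5.

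When each library was left out in turn, the members called ranged from 2 to 4 after IL-36γ and from 0 to 6 for both cytokines against IL-17A. The members past the adjusted p ranged from 0 to 4 after IL-17A, from 4 to 7 after IL-36γ, from 0 to 1 for both against IL-36γ and from 0 to 4 for IL-36γ against IL-17A. The log2 ratios ranged from 0.00 to 0.13 and from -0.33 to -0.17 for Hk2 to Hk1 with IL-17A and IL-36γ, from -0.36 to -0.24 for Pfkp to Pfkl with IL-17A, and from 0.36 to 0.90 and from 0.72 to 1.27 for Slc16a3 to Slc16a1 with IL-17A and IL-36γ. Values near 0 turned and ranged from 0.00 to 0.22 for Pfkl and from -0.10 to 0.00 for Pfkp after IL-17A, and from -0.04 to 0.08 for Hk2 (-0.03 without IL-36γ replicate 1) and from -0.10 to 0.24 for Pfkfb3 (-0.05 without IL-36γ replicate 1) after IL-36γ.

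Whether the replicate numbers are paired was not settled by the data. Of the 18 pairs of libraries with the same number, 9 had deviations that correlated above 0.1 (range -0.20 to 0.35), and 8 of 12 libraries correlated best with their own number, a hint from the data and not from the design. With the replicate block 4, 6 and 3 members were called after IL-36γ, after both and for both against IL-17A, as without it. It moved the count of members past the adjusted p by over 1.5 times only for IL-36γ against IL-17A. Over all genes the block had more effect. The genes that passed the interaction went from 25 to 391 upwards and from 82 to 492 downwards. The cause of this was not tested.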
